A study of Mus musculus with 16 samples.

Results

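Genes for 8 enzymes that write or erase histone marks were followed in EU-captured RNA, labelled as nascent, of mouse embryonic stem cells, self-renewing cells derived from the early embryo. They were the H3K4 demethylases Kdm5b (ENSMUSG00000042207.17) and Kdm5a (ENSMUSG00000030180.15), and the H3K27 demethylases Kdm6a (ENSMUSG00000037369.17) and Kdm6b (ENSMUSG00000018476.7). The others were the H3K4 methyltransferases of the MLL family, Kmt2a (ENSMUSG00000002028.13), Kmt2b (ENSMUSG00000006307.16), Kmt2c (ENSMUSG00000038056.15) and Kmt2d (ENSMUSG00000048154.17). All 8 were found by their gene identifiers among the 54446 mouse identifiers counted in every library. The symbols are those given with the identifiers that defined the set, and no table used here pairs identifiers with symbols. The level of Mettl14, markers of other cell types and a list of partner subunits were therefore not analysed here.

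The tested cells were a Mettl14 conditional knockout (CKO), and Control cells of the same experiment were the comparison. METTL14 works with METTL3 to place N6-methyladenosine on RNA. Both genotypes were of the C57BL/6 strain and grew in serum with LIF, CHIR99021 and PD0325901. Cells received 0.5 mM 5-ethynyl uridine (EU), a uridine analogue built into RNA as it is made, for 10, 20, 30 or 60 min. Each genotype gave 2 libraries at each of these times, 16 in all. The labels give the molecule as total RNA and also call it nascent polyA RNA, so how far the counts hold unfinished transcripts is not settled by them. They name no Cre driver, inducer or clone, and do not state that paired libraries are separate cultures. The p-values therefore cover only the spread seen among these libraries, which may be technical.

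Promoters of developmental genes in stem cells often carry H3K4 methylation, which goes with activity, together with H3K27 methylation, which goes with Polycomb repression, a state called bivalent. KDM5 enzymes remove methyl groups from H3K4 and KDM6 enzymes remove them from H3K27. KMT2A and KMT2B methylate H3K4 at promoters, and KMT2B is the main enzyme for this at bivalent promoters of mouse stem cells. KMT2C and KMT2D add the single methyl mark of enhancers and work in a complex that also holds KDM6A.

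The genes lie on 8 different chromosomes. In the RefSeq annotation of GRCm38.p6, the assembly that mm10 denotes, the spans are chr1:134560178-134632878 for Kdm5b, chr6:120364099-120444574 for Kdm5a, chrX:18160862-18279936 for Kdm6a and chr11:69398508-69420367 for Kdm6b. The MLL genes span chr9:44803355-44881352 (Kmt2a), chr7:30568855-30589056 (Kmt2b), chr5:25271795-25498855 (Kmt2c) and chr15:98831669-98874077 (Kmt2d). Kmt2b and Kdm6b are the shortest, at 20.2 and 21.9 kb, and Kmt2c is the longest at 227 kb. Because the length counted for each gene is not given in the sources used here, levels were compared between libraries for one gene and never between genes.

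The RefSeq promoter table held 5 of the 8 genes, with 1 transcript start for each. That start opens the gene span given above for Kdm5b and lies inside the span for Kdm6a, Kmt2a, Kmt2c and Kmt2d. The 250 bases before the table's start are shown for 1 gene of each enzyme class, because KMT2A and KMT2B bind promoters through a domain that recognises unmethylated CG pairs. Capitals mark each CG pair. The windows are chr1:134559928-134560177 on the plus strand (Kdm5b), chrX:18162325-18162574 on the plus strand (Kdm6a) and chr9:44881290-44881539 on the minus strand (Kmt2a), all in GRCm38.p6 and written 5′ to 3′.
Kdm5b: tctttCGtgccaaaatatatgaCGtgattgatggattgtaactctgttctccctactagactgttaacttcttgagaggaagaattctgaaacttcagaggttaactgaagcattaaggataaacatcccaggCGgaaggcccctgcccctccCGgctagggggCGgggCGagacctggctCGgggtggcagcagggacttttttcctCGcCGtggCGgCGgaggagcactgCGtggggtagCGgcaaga
Kdm6a: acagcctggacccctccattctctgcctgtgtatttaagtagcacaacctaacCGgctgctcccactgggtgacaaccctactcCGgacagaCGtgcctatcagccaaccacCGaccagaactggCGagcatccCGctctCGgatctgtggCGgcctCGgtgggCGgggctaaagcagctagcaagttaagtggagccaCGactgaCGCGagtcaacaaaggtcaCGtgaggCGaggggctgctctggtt
Kmt2a: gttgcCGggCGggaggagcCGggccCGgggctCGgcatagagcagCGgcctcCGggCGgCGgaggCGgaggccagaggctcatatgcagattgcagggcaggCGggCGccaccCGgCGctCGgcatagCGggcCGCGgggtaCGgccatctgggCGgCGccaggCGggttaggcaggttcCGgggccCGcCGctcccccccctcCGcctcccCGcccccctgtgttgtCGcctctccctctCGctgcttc
The 5 windows held 13 CG pairs in Kdm5b, 15 in Kdm6a, 29 in Kmt2a, 48 in Kmt2c and 26 in Kmt2d, against a median of 6 over all 32851 windows of this length. Of all windows, 31.5% had at least as many as Kdm5b, 6.78% at least as many as Kmt2a and 0.186% at least as many as Kmt2c. The motif GGGCGG, searched on both strands, was in all 5 windows and in 32.7% of all windows. These are descriptions of the letters in these windows.

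Control libraries held 12883425 to 28502750 mouse counts, and CKO libraries held 11902184 to 26557342 except at 30 min, where both were shallow, with 5188643 and 5109162. ERCC spike-in RNA, which was added after capture, took 0.643% to 7.97% of all counts. The same CKO 30 min libraries had counts on 30583 and 31826 identifiers, while the others had them on 21173 to 26857. Of their mouse counts, 1.67% and 1.63% fell on the 19033 identifiers at 0 throughout Control, and at most 0.0140% did in any other CKO library. Results that rest on them are given with and without the 30 min libraries. In every group the 2 libraries differed beyond sampling noise.

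Taken as one sum, the 8 genes took a smaller part of the mouse counts in CKO cells at every EU time. At 10 min the sum was 0.139% and 0.130% of mouse counts in the CKO libraries, against 0.197% and 0.212% in the Control libraries. At 20 min it was 0.177% and 0.181% in CKO, against 0.205% and 0.209% in Control. At 30 min it was 0.140% and 0.144% in CKO, against 0.209% and 0.209% in Control, and at 60 min 0.173% and 0.178% in CKO, against 0.213% and 0.215% in Control. The genotypes did not overlap at any EU time, and the CKO libraries were lowest at 10 and 30 min, while the Control libraries kept within a narrow band throughout. In bulk RNA, fewer cells of one kind and less RNA per cell cannot be told apart.

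Gene by gene, 7 of the 8 were lower in CKO cells over all EU times: both KDM5 genes, Kdm6a and the 4 MLL genes (edgeR, Benjamini-Hochberg adjusted p under 0.05, below referred to as called). Over all identifiers tested, 4.7% were called lower and 6.77% higher. Among the 4255 identifiers with a mean of at least 50 CPM, a range that holds all 8 genes, 19.2% were called lower. CPM are counts scaled to a fixed total for each library, and those printed for single genes carry the TMM scaling described below. The median log2 fold change (CKO over Control) was −0.42 over the 8 genes, with a range of −0.72 to −0.30, while it was 0.19 over all identifiers tested and −0.16 over the 4255. The directions hold for TMM scaling, which sets each library against the bulk of its own genes. TMM factors were 1.22 and 1.24 in the CKO 30 min libraries and 0.912 to 1.015 in the others. A larger factor lowers the CPM. Scaled by library total alone, Kdm5b had 155 and 169 CPM in CKO libraries at 30 min, against 290 and 296 CPM in Control libraries. With scaling by the ERCC counts edgeR called none of the 8 over all EU times (0 at an unadjusted p under 0.05), against 12.4% of identifiers. Kdm5a, Kdm6b, Kmt2c and Kmt2d then had positive values. That scaling moved the median of all identifiers tested to 0.60, and all 8 genes lay below it, by 0.48 to 0.88. The median of the 4255 was not computed with ERCC scaling. Without the 30 min libraries, and with TMM scaling, the same 7 genes were called lower, against 6.04% of 20204 identifiers. The median of the 8 was then −0.31, against −0.02 over all identifiers tested.

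Kdm5b, an H3K4 demethylase abundant in stem cells, differed most. After 10 min of EU it had 168 and 191 CPM in CKO libraries, against 303 and 349 CPM in Control libraries. After 20 min it had 206 and 210 CPM in CKO libraries, against 289 and 293 CPM in Control libraries. After 30 min it had 127 and 141 CPM in CKO libraries, against 291 and 297 CPM in Control libraries, and after 60 min 223 and 239 CPM in CKO libraries, against 300 and 313 CPM in Control libraries. Every CKO library lay below every Control library, a pattern that 0.546% of all identifiers tested showed. Identifiers without a count in some Control library could not show it, and the share among the 4255 was not computed. For the 10 min pairs alone that share was 35.2%, against 18.9% of all identifiers. Over all EU times the log2 fold change was −0.72 (SE 0.10, edgeR, adjusted p = 0.000179), and without the 30 min libraries it was −0.60 (SE 0.08), still called. Kdm5b was called lower at each of the 4 EU times, with log2 fold changes of −0.86 at 10 min, −0.49 at 20 min, −1.14 at 30 min and −0.41 at 60 min. The 20 min call was lost without the second Control or either CKO 20 min library, and the 60 min call without either Control or the first CKO 60 min library.

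Kdm5a, its paralogue, changed less. It had 153 and 160 CPM in CKO libraries at 10 min, against 179 and 196 CPM in Control libraries. At 60 min it had 249 and 273 CPM in CKO libraries, against 295 and 299 CPM in Control libraries. It had 201 and 202 CPM in CKO libraries at 20 min, against 212 and 224 CPM in Control libraries, and 138 and 167 CPM in CKO libraries at 30 min, against 240 and 241 CPM in Control libraries. The CKO pairs lay below the Control pairs at all 4 EU times, with the widest gap at 30 min. The overall log2 fold change was −0.30 (SE 0.09, edgeR, adjusted p = 0.0398), near the threshold, and the call was lost in 6 of the 16 fits that each left out 1 library. Those were the fits without either Control 10 min library, either Control 30 min library, the first CKO 30 min library or the first CKO 60 min library. At 30 min alone Kdm5a was called lower, with a log2 fold change of −0.66 (SE 0.10), whereas the values of −0.26 at 10 min, −0.11 at 20 min and −0.19 at 60 min did not pass.

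The ratio of Kdm5b to Kdm5a counts within a library does not depend on any scaling. It was 1.05 and 1.25 in CKO libraries at 10 min, against 1.55 and 1.95 in Control libraries. It was 1.02 and 1.04 in CKO, against 1.29 and 1.39 in Control, at 20 min, and 1.01 and 0.761 in CKO, against 1.23 and 1.21 in Control, at 30 min. After 60 min it was 0.894 and 0.875 in CKO libraries, against 1.00 and 1.06 in Control libraries. The CKO pair was below the Control pair at all 4 EU times, and within both genotypes the ratio was highest at 10 min and lowest at 60 min, apart from the second CKO 30 min library, which had the lowest ratio of all. For this ratio and those below, how often ratios of other gene pairs separate the genotypes was not computed. The separations therefore cannot be read as particular to these pairs of genes.

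**Figure D1:**
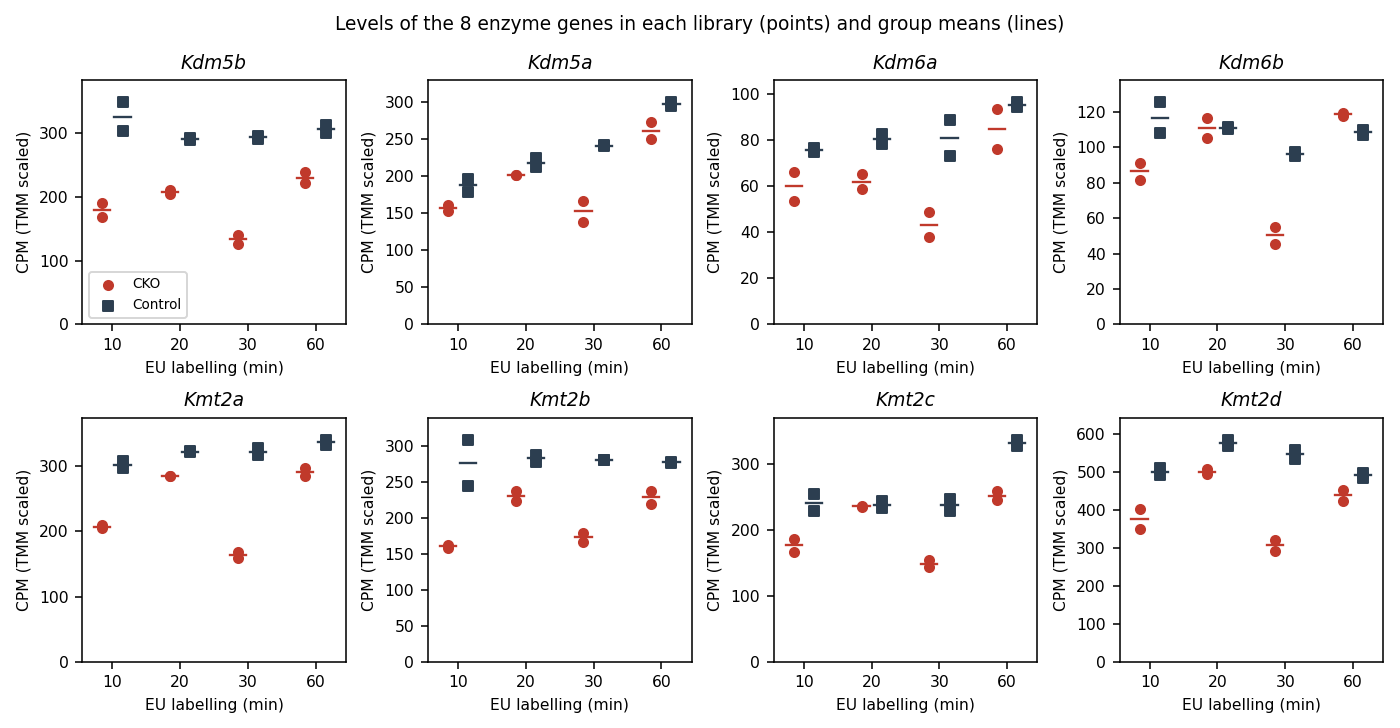
TMM-scaled CPM of each gene (vertical axes, from 0) in every library by EU labelling time in minutes, with CKO libraries as circles and Control libraries as squares and a line at each group mean (n = 2). Kdm5b lies at 127 to 239 CPM in all 8 CKO libraries and at 289 to 349 CPM in all 8 Control libraries, and Kdm6b is higher in the CKO pair only at 60 min.

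Of the H3K27 demethylases, Kdm6a was called lower over all EU times and Kdm6b was not. Kdm6a, an X-linked gene, had 53.5 and 66.2 CPM in CKO libraries at 10 min, against 74.9 and 76.7 CPM in Control libraries. At 60 min it had 76.0 and 93.4 CPM in CKO libraries, against 94.2 and 96.3 CPM in Control libraries. It had 58.5 and 65.3 CPM in CKO libraries at 20 min, against 78.3 and 82.7 CPM in Control libraries, and 37.9 and 48.7 CPM in CKO libraries at 30 min, against 72.9 and 88.7 CPM in Control libraries. The pairs did not overlap at any EU time, although the second CKO 60 min library nearly reached the Control pair. The overall log2 fold change was −0.44 (SE 0.11, edgeR, adjusted p = 0.0152). At single EU times only 30 min was called, at −0.90 (SE 0.15), and the other values were −0.34 at 10 min, −0.38 at 20 min and −0.17 at 60 min.

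Kdm6b, whose product JMJD3 is known as the signal-induced H3K27 demethylase, was the 1 gene with a higher CKO pair at 60 min, without a call. It had 81.7 and 91.2 CPM in CKO libraries at 10 min, against 108 and 125 CPM in Control libraries. At 20 min it had 105 and 117 CPM in CKO libraries, against 110 and 111 CPM in Control libraries, and at 30 min 45.6 and 54.9 CPM in CKO libraries, against 95.2 and 97.3 CPM in Control libraries. At 60 min it had 118 and 119 CPM in CKO libraries, against 107 and 110 CPM in Control libraries. It was called lower at 10 min, with a log2 fold change of −0.43 (SE 0.11, edgeR, adjusted p = 0.0117), and at 30 min, with −0.94 (SE 0.12). The 10 min call was lost without the second Control or the second CKO 10 min library. At 20 min the log2 fold change was 0.0025 (SE 0.11) and at 60 min 0.13 (SE 0.11, edgeR, adjusted p = 0.925). Over all EU times it was −0.30 (SE 0.12, edgeR, adjusted p = 0.0998), and −0.11 without the 30 min libraries.

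The ratio of Kdm6b to Kdm6a counts was 1.80 and 1.79 in CKO libraries at 20 min, against 1.35 and 1.41 in Control libraries. At 60 min it was 1.57 and 1.26 in CKO libraries, against 1.14 and 1.14 in Control libraries. The CKO pair was higher at these EU times, while at 10 and 30 min the genotypes overlapped, with 1.70 and 1.23 in CKO against 1.45 and 1.63 in Control at 10 min.

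All 4 MLL genes were called lower over all EU times. Kmt2a, which encodes MLL1, had 204 and 209 CPM in CKO libraries at 10 min, against 296 and 308 CPM in Control libraries. It had 284 and 285 CPM in CKO libraries at 20 min, against 321 and 323 CPM in Control libraries, and 285 and 296 CPM in CKO libraries at 60 min, against 332 and 340 CPM in Control libraries. At 30 min it had 159 and 169 CPM in CKO libraries, against 316 and 327 CPM in Control libraries. The pairs did not overlap at any EU time, and the gap was wider at 10 min than at 20 or 60 min. The log2 fold change was −0.55 (SE 0.08, edgeR, adjusted p = 2.23e-05) at 10 min and −0.47 (SE 0.10, edgeR, adjusted p = 0.00705) over all EU times, with −0.33 without the 30 min libraries.

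Kmt2b, which encodes the MLL enzyme of bivalent promoters, had 159 and 163 CPM in CKO libraries at 10 min, against 245 and 309 CPM in Control libraries. At 20 min it had 223 and 238 CPM in CKO libraries, against 278 and 288 CPM in Control libraries, and at 60 min 220 and 238 CPM in CKO libraries, against 277 and 279 CPM in Control libraries. At 30 min it had 167 and 180 CPM in CKO libraries, against 281 and 281 CPM in Control libraries. Like Kdm5b, it was lower in every CKO library than in every Control library, with and without the 30 min libraries, a pattern of 0.546% and 1.1% of identifiers tested. The shares among identifiers with at least 50 CPM were not computed. With TMM scaling its CKO pairs were lowest at 10 and 30 min, while the Control pairs had means of 277 to 283 CPM. Scaled by library total alone, the CKO pair was still lowest at 10 min, at 154 and 154 CPM. The CKO 30 min pair, at 204 and 216 CPM, then overlapped the CKO 60 min pair, at 200 and 221 CPM. The log2 fold change was −0.79 (SE 0.10, edgeR, adjusted p = 2.23e-06) at 10 min. Over all EU times it was −0.51 (SE 0.10, edgeR, adjusted p = 0.00219), and −0.47 without the 30 min libraries. The ratio of Kmt2b to Kmt2a counts was 0.759 and 0.797 in CKO libraries at 10 min, against 0.828 and 1.00 in Control libraries, and 1.13 and 0.987 in CKO at 30 min, against 0.858 and 0.889 in Control. The CKO pair was thus lower at 10 min, and also at 20 min, higher at 30 min and overlapping at 60 min.

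Kmt2c and Kmt2d, the enhancer enzymes MLL3 and MLL4, had overall log2 fold changes of −0.38 (SE 0.09, edgeR, adjusted p = 0.0152) and −0.40 (SE 0.10, edgeR, adjusted p = 0.0149). Kmt2c had 167 and 187 CPM in CKO libraries at 10 min, against 229 and 254 CPM in Control libraries. At 60 min it had 245 and 259 CPM in CKO libraries, against 328 and 336 CPM in Control libraries. It was called lower at both of these times, whereas at 20 min its pairs overlapped, with 234 and 237 CPM in CKO against 232 and 244 CPM in Control. At 30 min it had 143 and 154 CPM in CKO libraries, against 228 and 246 CPM in Control libraries. Kmt2d had 350 and 403 CPM in CKO libraries at 10 min, against 491 and 509 CPM in Control libraries, and 424 and 451 CPM in CKO libraries at 60 min, against 484 and 496 CPM in Control libraries. At 20 min Kmt2d had 494 and 506 CPM in CKO libraries, against 568 and 584 CPM in Control libraries, and at 30 min 293 and 320 CPM in CKO libraries, against 534 and 558 CPM in Control libraries. No pair of Kmt2d overlapped. It was called lower at 10 min, at −0.41 (SE 0.08, edgeR, adjusted p = 0.000785), and not at 60 min, at −0.16 (SE 0.08, edgeR, adjusted p = 0.496). The Kmt2d to Kmt2c count ratio was 1.73 and 1.75 in CKO libraries at 60 min, against 1.48 and 1.48 in Control libraries, and was 2.16 and 2.09 in CKO, against 2.15 and 2.00 in Control, at 10 min. At 20 min it was 2.16 and 2.08 in CKO libraries, against 2.44 and 2.40 in Control libraries, and at 30 min 2.23 and 1.90 in CKO, against 2.44 and 2.17 in Control. The CKO pair was thus lower at 20 min and higher at 60 min, and the pairs overlapped at 10 and 30 min.

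**Figure D2:**
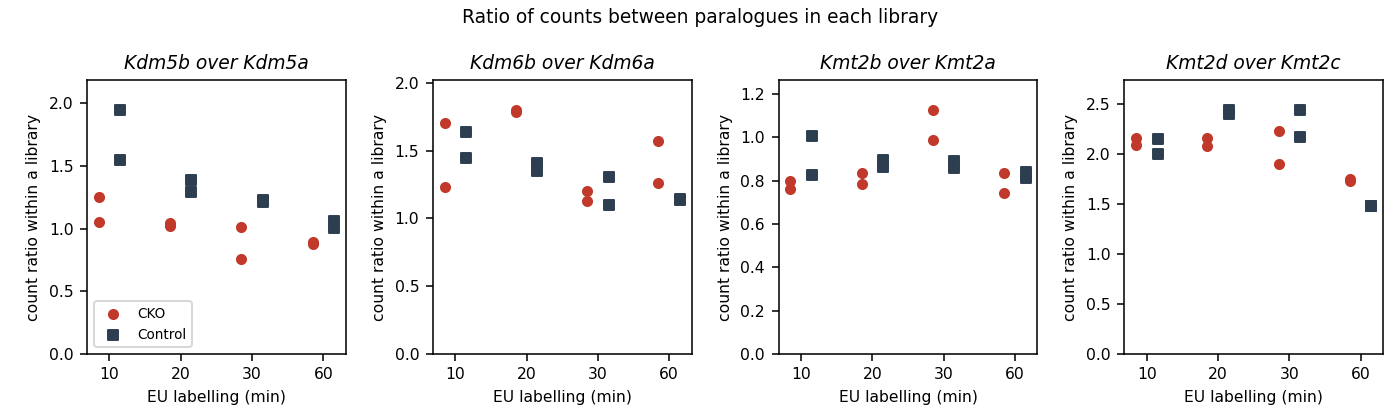
Ratio of raw counts between 2 genes within each library (vertical axes, from 0) by EU labelling time in minutes, with CKO libraries as circles and Control libraries as squares. Kdm5b over Kdm5a is lower in the CKO pair at all 4 EU times, and Kmt2d over Kmt2c falls between 1.48 and 1.75 in the 4 libraries of 60 min.

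Set side by side, the EU times differed in how many of the 8 genes were called. At 10 min 6 of 8 were called lower, all but Kdm5a and Kdm6a, against 5.36% of all identifiers tested and 18.8% of those with at least 50 CPM, while with ERCC scaling all 8 had positive values. The median of the 8 genes was −0.44 at 10 min, and that of the 4255 identifiers was −0.02. Both CKO libraries lay below both Control libraries for all 8 genes, against 18.9% of all identifiers and 35.2% of those with at least 50 CPM. Without the 30 min libraries all 8 were called lower at 10 min, against 11.9% of identifiers.

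At 20 min 1 of 8 was called lower, Kdm5b, against 0.255% of all identifiers and 1.46% of those with at least 50 CPM. Of the 8 genes, 6 had both CKO libraries below both Control libraries, against 20.6% of all identifiers and 36.9% of those with at least 50 CPM. The overlapping genes were Kdm6b and Kmt2c. Without the 30 min libraries Kdm5b was again the 1 gene called, against 0.663% of identifiers. At 60 min 2 of 8 were called lower, Kdm5b and Kmt2c, against 0.84% of all identifiers and 4.56% of those with at least 50 CPM. Kmt2c at 60 min lost its call in the same 3 fits as Kdm5b, those without either Control or the first CKO 60 min library. DESeq2 called 3 of the 8 genes at 20 min, Kdm5b, Kmt2a and Kmt2b, against 3.1% of identifiers. For 60 min DESeq2 called 6, all but Kdm6a and Kdm6b, against 7.06%. The pairs at 60 min did not overlap for any of the 8 genes, with 7 lower in CKO, against 22.4% of all identifiers and 37% of those with at least 50 CPM, and Kdm6b higher, against 23.3%. In the fit that left out 30 min, 2 of 8 were called lower at 60 min, against 1.9% of identifiers. With ERCC scaling edgeR called no gene of the 8 at 20 or 60 min, against 0.531% and 0.0437% of identifiers. Of the 8 genes, 0 had an unadjusted p under 0.05 at either time. With that scaling Kdm5b had −0.09 (SE 0.24) at 20 min and −0.36 (SE 0.24) at 60 min. With TMM scaling it had −0.49 (SE 0.09) and −0.41 (SE 0.09).

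At 30 min all 8 genes were called lower, with log2 fold changes from −1.14 for Kdm5b to −0.66 for Kdm5a. This was 19.1% of all identifiers, but 76.3% of those with at least 50 CPM, whose median was −0.61. All 8 pairs were lower in CKO without overlap, as were 28.9% of all identifiers and 84.2% of those with at least 50 CPM. The median of the 8 genes was −0.87, just past the lower quartile of the 4255 identifiers at −0.86, and all 8 lay below the median of the 4255. With ERCC scaling all 8 were also called lower, from −1.18 for Kdm5b to −0.75 for Kmt2b, against 42.3% of identifiers called in either direction. Under that scaling the 8 genes lay 1.28 to 1.71 below the median of all identifiers tested, which was 0.53. With TMM scaling that median was 0.61, against −0.61 over the 4255, so distances to it are wider than those to abundant identifiers. Being called lower at 30 min was thus common among abundant identifiers in these libraries.

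**Figure D3:**
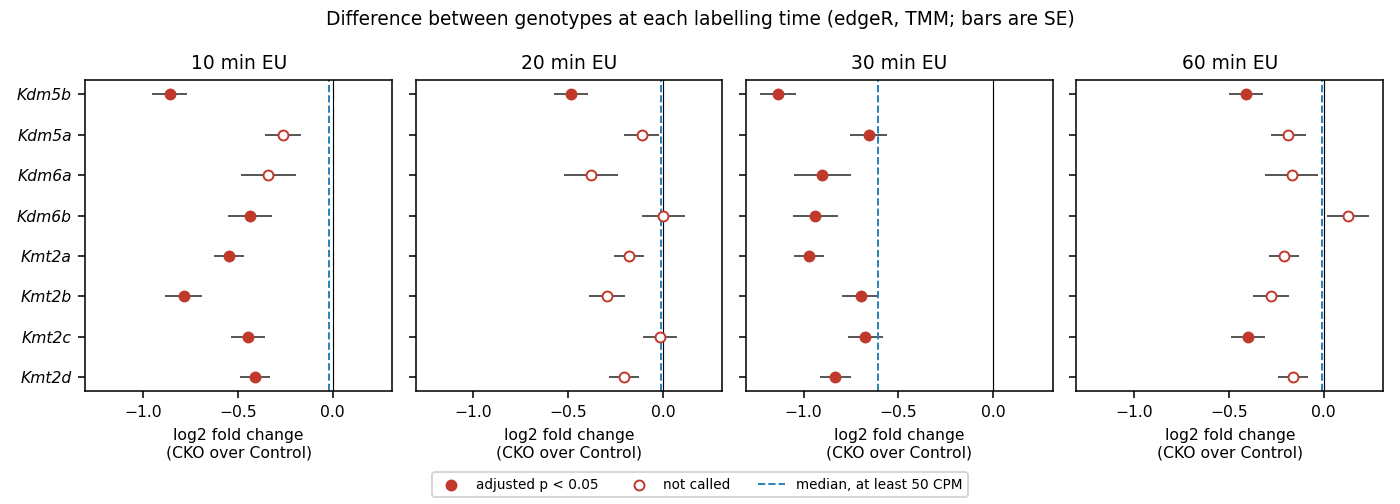
Log2 fold change (CKO over Control, edgeR with TMM scaling) of each gene at each EU time, with bars for the SE, filled points for adjusted p under 0.05 and a dashed line at the median of the 4255 identifiers with at least 50 CPM. All 8 genes lie left of that line at 10 min, where it is at −0.02, and at 30 min the line itself is at −0.61.

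The difference between genotypes varied with EU time for all 8 genes in the test of genotype by EU time, against 22.7% of all identifiers and 74% of those with at least 50 CPM. Without the 30 min libraries 5 of 8 were called, Kdm5b, Kdm6b, Kmt2a, Kmt2b and Kmt2c, against 5.58% of identifiers. Over the 16 fits that each left out 1 library, Kdm6a lost this call in 12, Kdm5a in 9 and Kmt2c in 1. In CKO cells 7 of 8 were called higher at 60 than at 10 min, against 8.96% of all identifiers and 34.3% of those with at least 50 CPM. Kmt2d was also positive there, at 0.22, but was not called (edgeR, adjusted p = 0.0675). The calls of Kdm5b and Kdm6a were lost without the first CKO 10 min or the second CKO 60 min library, and that of Kdm6b without the second CKO 10 min library. In Control cells 5 of 8 values were positive. Those called higher were 2 of 8, Kdm5a by 0.66 (SE 0.09) and Kmt2c by 0.46 (SE 0.09) on the log2 scale. The shares called higher were 6.88% of all identifiers and 26.6% of those with at least 50 CPM.

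The median change from 10 to 60 min was 0.50 in CKO and 0.08 in Control, and that of the 4255 abundant identifiers was 0.14 in CKO and 0.10 in Control. The difference between these changes (CKO minus Control) was positive for all 8 genes, from 0.05 for Kmt2c to 0.56 for Kdm6b, with a median of 0.29 against 0.00 over all identifiers tested. Of these, Kmt2b was called, at 0.51 (SE 0.14, edgeR, adjusted p = 0.041), against 1.39% of all identifiers called in this direction and 7.19% of those with at least 50 CPM, and Kdm5b at 0.45 and Kdm6b at 0.56 were just outside (edgeR, adjusted p = 0.0626 and 0.0605). The Kmt2b call was lost in 12 of the 16 fits that left out 1 library. Fitted without the 30 min libraries, 4 were called, Kdm5b, Kdm6b, Kmt2a and Kmt2b, against 3.34% of identifiers, and DESeq2 called 4 as well, against 7.17%. With ERCC scaling the sign of this difference turned, from −1.22 for Kmt2c to −0.71 for Kdm6b, and 5 of 8 were called lower, against 29% of identifiers. The median of all identifiers tested was −1.17 under that scaling, and 6 of the 8 genes lay above it, by up to 0.46 for Kdm6b, with Kdm5a and Kmt2c just below. With that scaling all 8 were called higher at 60 than at 10 min in Control, against 66.5% of identifiers.

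Relative to the spike-in, the 8 genes had a higher output in CKO cells at 10 min. Kdm5b had 4.68 and 6.19 counts per 1000 ERCC counts in CKO libraries, against 3.55 and 4.30 in Control libraries. Kmt2a had 5.80 and 6.63 in CKO libraries, against 3.47 and 3.79 in Control libraries. With ERCC scaling 6 of the 8 genes were called higher at 10 min, from 0.77 for Kmt2a to 1.06 for Kdm5a on the log2 scale, against 43.1% of all identifiers, and Kdm5b at 0.47 and Kmt2b at 0.54 were not called. The median of all identifiers tested moved by 1.14 under this scaling, so that all 8 genes lay below it, by 0.67 for Kdm5b, 0.61 for Kmt2b and 0.08 for Kdm5a. All mouse counts stood at 28.6 and 34.3 per ERCC count in CKO libraries at 10 min, against 11.6 and 12.3 in Control libraries. ERCC RNA was added after capture, so RNA output and capture yield cannot be told apart.

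Output per spike-in was higher at 60 min than at 10 min for every gene, and the factor was smaller in CKO cells. From 10 to 60 min it grew 5.52-fold in CKO and 9.81-fold in Control for Kdm5b, 7.23-fold in CKO and 16.6-fold in Control for Kdm5a, and 6.17-fold in CKO and 14.3-fold in Control for Kmt2c. All mouse counts together grew 4.49-fold in CKO and 11.1-fold in Control. The factor for each of the 8 genes thus exceeded that of all mouse counts in CKO, while in Control it did so for Kdm5a, Kdm6a, Kmt2a and Kmt2c. This contrast depends on the reference. Against the median of all identifiers tested, with ERCC scaling, all 8 genes lay above it in both genotypes. On the log2 scale this was by 0.32 to 0.84 in CKO and by 0.03 to 0.80 in Control. The share of identifiers that exceeded all mouse counts was not computed. In CKO cells the rise was not steady between these times. The CKO mean of Kdm5b was 12.2 counts per 1000 ERCC counts at 20 min and 10.6 at 30 min. Of the 8 genes only Kmt2b had a higher CKO mean at 30 min, at 13.7 against 13.5 at 20 min. The CKO 30 min libraries themselves differed, with 81.6 and 47.4 mouse counts per ERCC count.

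The slope of output on EU minutes was lower in CKO for 7 of the 8 genes. It was also lower for all mouse counts together, at 2.15 per ERCC count per min in CKO and 2.33 in Control (log2 ratio −0.12). The share of all identifiers with a lower slope in CKO was not computed, so 7 of 8 cannot be read as particular to these genes. Kdm5b gained 0.479 ± 0.075 counts per 1000 ERCC counts per min in CKO and 0.677 ± 0.056 in Control (SE of the slope, n = 8), a ratio of 0.707. Kmt2c gained 0.527 ± 0.077 in CKO and 0.777 ± 0.018 in Control, a ratio of 0.679. Kdm6b gained 0.246 ± 0.045 in CKO and 0.237 ± 0.015 in Control, a ratio of 1.04, which is within these errors. The ratios of Kdm5a, Kdm6a, Kmt2a, Kmt2b and Kmt2d lay between 0.768 and 0.852. The CKO 60 min libraries moved these values most, with a log2 ratio for Kdm5b of −0.81 without the second and −0.36 without the first, and for Kdm6a of −0.70 and −0.02. For Kdm6b the log2 ratio was 0.05 with all libraries and −0.21 without the second CKO 60 min library, so that all 8 slopes were then lower in CKO. No test was run on the slopes.

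**Figure D4:**
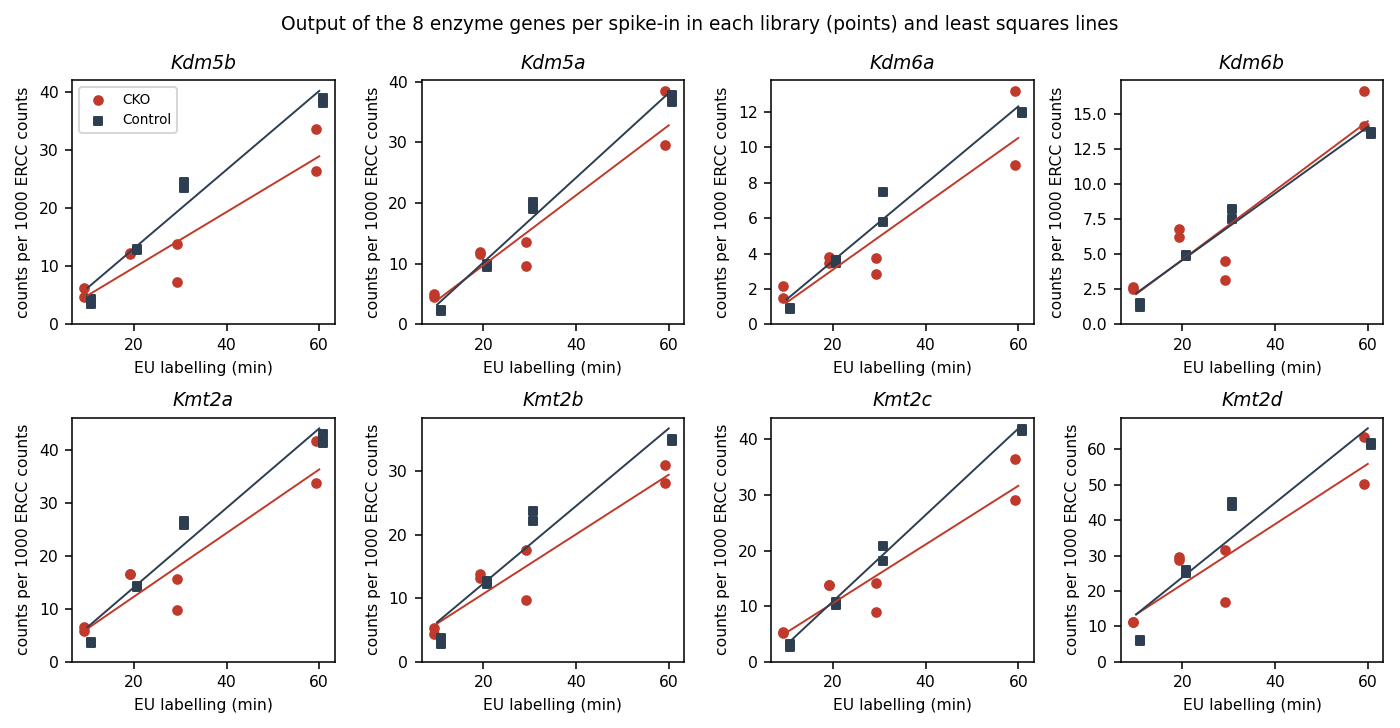
Counts of each gene per 1000 ERCC counts (vertical axes) in every library against EU labelling time in minutes, with CKO libraries as circles, Control libraries as squares and least squares lines per genotype. The CKO line is the flatter one for 7 genes, and for Kdm6b the slopes are 0.246 in CKO and 0.237 in Control.

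Within the sum of the 8 genes, 3 held a smaller mean share in CKO than in Control over all EU times, Kdm5b, Kmt2a and Kmt2b, and 2 did without the 30 min libraries, Kdm5b and Kmt2b. The share of Kdm5b was 12.8% ± 1.5 in CKO and 16.1% ± 0.65 in Control at 10 min (SD, n = 2 each), and 12.1% ± 0.20 in CKO and 13.7% ± 0.28 in Control at 60 min. Kmt2d held 26.8% ± 2.0 in CKO and 24.7% ± 0.81 in Control at 10 min, and 23.0% ± 0.26 in CKO and 21.9% ± 0.19 in Control at 60 min.

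Across the 16 libraries the log2 CPM of the 8 genes varied together, with Pearson r from 0.61 to 0.93 over the 28 pairs and a median of 0.82. Kmt2a with Kmt2d was the closest pair. Over the 12 libraries without 30 min the range was 0.35 to 0.94, and Kmt2a with Kmt2b was closest. These values share libraries, genotype and scaling, and describe the set only. Among 9865 other identifiers averaging 3 or more in log2 CPM, the one most like Kdm5b was ENSMUSG00000037795.14 over 16 libraries (r = 0.97) and ENSMUSG00000031425.15 over 12 (r = 0.96). For each of the 8 genes some identifier outside the set followed it more closely than any of the other 7, with r from 0.95 to 0.98 over 16 libraries. This sets the best of 9865 against the best of 7, so it does not show how closely the set holds together.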

How the data were processed

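The authors deposited raw counts per gene identifier, 1 file per library, with 92 ERCC species. The tools named in the submitters' processing notes are HTSeq, HISAT2 2.1.0, Trimmomatic 0.38 and CASAVA, with the mm10 build. Which annotation, strand setting and feature were counted is not stated in the sources used here, so overlapping and antisense genes have uncertain counts. The members and lists were chosen with earlier results of these data known. All 8 genes were named. The rule's lists of partner genes and cell type markers could not be matched to identifiers and were not used.

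Counts were tested in edgeR 4.0.16 under R 4.3.3 by its robust quasi-likelihood test, with TMM scaling and edgeR's count filter, which left 27488 identifiers, all 8 genes among them. Adjustment was by Benjamini-Hochberg over all of them, with a threshold of 0.05. For the effect over all EU times the model held genotype plus EU time, and the other tests used 8 group means. The errors of log2 fold changes were computed from the F statistic. The comparison of the promoter windows, the group with at least 50 CPM, the ratios between paralogues and the relation to gene span were chosen after the data were seen. The deposited counts were divided by ERCC counts for output per spike-in, with no test. Total mouse counts of 5109162 to 28502750 per library gave each gene at least 237 counts. On simulated data for the 10 min comparison (26270 identifiers run), 31% of genes changed 1.5-fold and 70% of those changed 2-fold were recovered. For the overall comparison these were 87% and 98%. Alternatives were DESeq2 1.42.0, other scalings, no count filter, the replicate number as a block, and fits without the 30 min libraries or each library in turn.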

Additional observations from a re-analysis of the deposited data

Results flagged for a closer look

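Each of the 8 genes had a CKO effect that changed with EU time (edgeR, F-test with 3 degrees of freedom, Benjamini-Hochberg). The adjusted p was 0.000313 for Kdm5b, 0.0126 for Kdm5a, 0.0464 for Kdm6a and 6.85e-05 for Kdm6b. It was 1.37e-05 for Kmt2a, 0.00665 for Kmt2b, 0.00251 for Kmt2c and 0.000183 for Kmt2d. The same test called 74% of identifiers with at least 50 CPM. Leaving out 1 library at a time, Kdm6a lost the call in 12 of 16 fits and Kdm5a in 9. Without the 30 min libraries it no longer called Kdm5a, Kdm6a and Kmt2d. Kmt2b also stood out because its change from 10 to 60 min differed between the genotypes by 0.51 (CKO minus Control, log2 scale, edgeR), a call lost in 12 of 16 fits that left out 1 library. The part that the CKO 30 min libraries, with their low depth and counts on identifiers absent from Control, have in these values was not tested.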

How the results depend on the processing

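The number of the 8 genes called stayed within 1.5 times of the reported one over all EU times (apart from ERCC scaling), at 10 and 30 min, and for 60 against 10 min in CKO. ERCC scaling called 0 over all EU times, 0 at 20 min and 0 at 60 min, and 6 at 10 min with the sign turned. At 30 min it called all 8 lower, as TMM scaling did. Under ERCC scaling the log2 fold changes over all EU times of Kdm5a, Kmt2c and Kmt2d were 0.11, 0.038 and 0.028. At 10 min they were 0.47 (Kdm5b), 1.06 (Kdm5a), 0.99 (Kdm6a), 0.88 (Kdm6b), 0.77 (Kmt2a), 0.54 (Kmt2b), 0.87 (Kmt2c) and 0.91 (Kmt2d). The change from 10 to 60 min in Control was called for 8, with 3.29 for Kdm5b, 3.28 for Kdm6b and 3.36 for Kmt2d, and its difference between genotypes for 5, with −1.20 (Kdm5a), −1.10 (Kdm6a), −0.94 (Kmt2a), −1.22 (Kmt2c) and −1.02 (Kmt2d). Kmt2b turned to −0.77 without a call. ERCC scaling moves every gene of a library by the same factor. DESeq2 called 3 at 20 min, 6 at 60 min and 4 for the difference. The difference was called for 0 with DESeq2 size factors in edgeR or no filter, 3 with library totals and 4 without the 30 min libraries. Genotype by EU time was called for 5 with DESeq2 size factors and 5 without the 30 min libraries. Leaving out each library in turn gave 0 to 1 at 20 min, 0 to 3 at 60 min, 0 to 3 for the difference and 5 to 8 for genotype by EU time. The causes were not tested.

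The replicate numbers did not pair the libraries: correlations of replicate differences between groups lay between −0.06 and 0.03 over 28 pairs of groups, none over 0.1. With the replicate number as a block the difference was called for 3 of the 8 genes, and Kdm5a lost its call over all EU times, with the other counts of the 8 genes as reported. Counts over all identifiers ranged from 1611 to 4338 around 3152 over all EU times, 2241 to 11962 around 3246 at 10 min, 105 to 851 around 264 at 20 min, 6305 to 13018, all below the reported 13339, at 30 min, and 12 to 1941 around 723 at 60 min. For genotype by EU time they ranged from 1127 to 10546 around 6238. For the change from 10 to 60 min they ranged from 1552 to 18274 around 2774 in Control and from 2882 to 14556 around 4176 in CKO, and for its difference from 270 to 8014 around 690. Slopes without the 30 min libraries are the same by construction, since 30 min is the mean EU time. Depth limited the CKO 30 min libraries most, where Kdm6a had 237 and 304 counts.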

Other observations

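Over the 8 genes, the change from 10 to 60 min in Control cells tended to be larger for genes with a longer annotated span (Spearman rho = 0.76, Pearson r = 0.68 with log span, n = 8 genes). It was 0.0027 for Kmt2b at 20.2 kb, −0.11 for Kdm6b at 21.9 kb and 0.46 for Kmt2c at 227 kb. The largest change was 0.66 for Kdm5a at 80.5 kb, while Kdm5b, at 72.7 kb, had −0.09. In CKO cells the same relation had a Spearman rho of 0.31 and a Pearson r of 0.23, with Kmt2b at 0.51 and Kdm6b at 0.46. The knockout effect had a Spearman rho with span of 0.38 at 10 min and of 0.19 over all EU times, where the Pearson r was −0.03. The relation was not computed over other genes. These values describe 8 genes that share the same libraries, and the span is not the length counted.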
